A study of Mus musculus with 21 samples.

Results

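Transcripts of 7 genes used to identify type 2 conventional dendritic cells (cDC2), Clec4a2, Clec10a, Mgl2, Clec12a, Esam, Itgam and Irf4, were followed across 7 groups of sorted mouse dendritic cells (DCs). The genes were taken by name from a table of read counts for 55471 Ensembl genes. Each of the 7 matched 1 identifier and passed the filter on low counts in every comparison. The series measured RNA by sequencing in 21 libraries, 3 biological replicates in each group, from male C57BL/6 mice aged 6 weeks. All mice carried 1 copy of a reporter knock-in allele for Aire, AGF-KI, the autoimmune regulator gene, so that no group is free of the reporter. AireKO mice were AGF-KI/- and have the reporter allele opposite an Aire-null allele, while KI/+ mice were AGF-KI/+ and keep an unmodified copy. Lymph node (LN) DCs positive for CD45, CD11c and MHC class II were split by the reporter into AGF+ cells of AireKO mice, AGF+ cells of KI/+ mice, AGF- cells of AireKO mice and AGF- cells of KI/+ mice. Bone marrow (BM) gave AGF+ cells of AireKO mice, AGF+ cells of KI/+ mice and, from KI/+ mice alone, a population that the titles name total DC and the design text names AGF-. The BM gates differ: AGF+ cells were B220-negative and CD24-positive with little or no CD11b, whereas total DCs were B220-negative, CD11c-positive and MHC class II-positive. CD11b is the protein of Itgam, so a low Itgam level in BM AGF+ cells is in part what the gate selected, and its values there are given as a description.

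cDC2 are the DC lineage that presents antigen mainly on MHC class II to CD4 T cells, and in the mouse they are commonly recognised by SIRPα, CD11b and CD4 on their surface. IRF4 is a transcription factor needed for the function and migration of cDC2, and Notch2 signalling maintains the cDC2 of the spleen that carry the adhesion molecule ESAM. Clec4a2, Clec10a, Mgl2 and Clec12a encode C-type lectin receptors, membrane proteins that bind sugars or other ligands of microbes and dying cells. Several of these genes are also expressed by monocytes and macrophages, so none marks cDC2 alone.

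Libraries held 4164451 to 6055097 counts, and a level of 1 CPM (the count scaled to its library's size, with sizes adjusted by trimmed mean of M-values) rested on 3.91 to 6.56 counts. All 7 general DC genes examined, Flt3, Zbtb46, Itgax, H2-Aa, H2-Ab1, Cd74 and Kmo, had counts in every group, and their summed level was 6331 to 6906 CPM in LN AGF+ AireKO, 6258 to 7265 in LN AGF+ KI/+, 8467 to 9290.5 in LN AGF- AireKO and 8741 to 9396 in LN AGF- KI/+ libraries. It was 5695 to 6429 CPM in BM AGF+ AireKO, 5478 to 6177 in BM AGF+ KI/+ and 4690 to 5875 in BM total DC libraries. Most of the sum came from H2-Aa, H2-Ab1 and Cd74, at 1207, 793 and 2435 CPM in BM total DCs. Single genes differed more: Flt3 averaged 35.9 CPM in BM total DCs and 316 CPM in BM AGF+ KI/+ cells. Itgax averaged 469 CPM in BM total DCs and 58.5 CPM (12.5 to 99.9) in BM AGF+ KI/+ cells. Aire averaged 25.2 CPM in AireKO and 114 CPM in KI/+ LN AGF+ cells, and 14.5 CPM in AireKO and 101 CPM in KI/+ BM AGF+ cells. In the 7 libraries numbered 2, 1 in each group, Xist stood at 2028 to 4008 CPM and 4 Y-linked genes together at 0 to 0.768 CPM, against 0 to 31.2 and 331 to 568 CPM in the other 14, which does not match the male label. Calls on the 7 genes that change without these libraries are given beside the results.

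**Figure D1:**
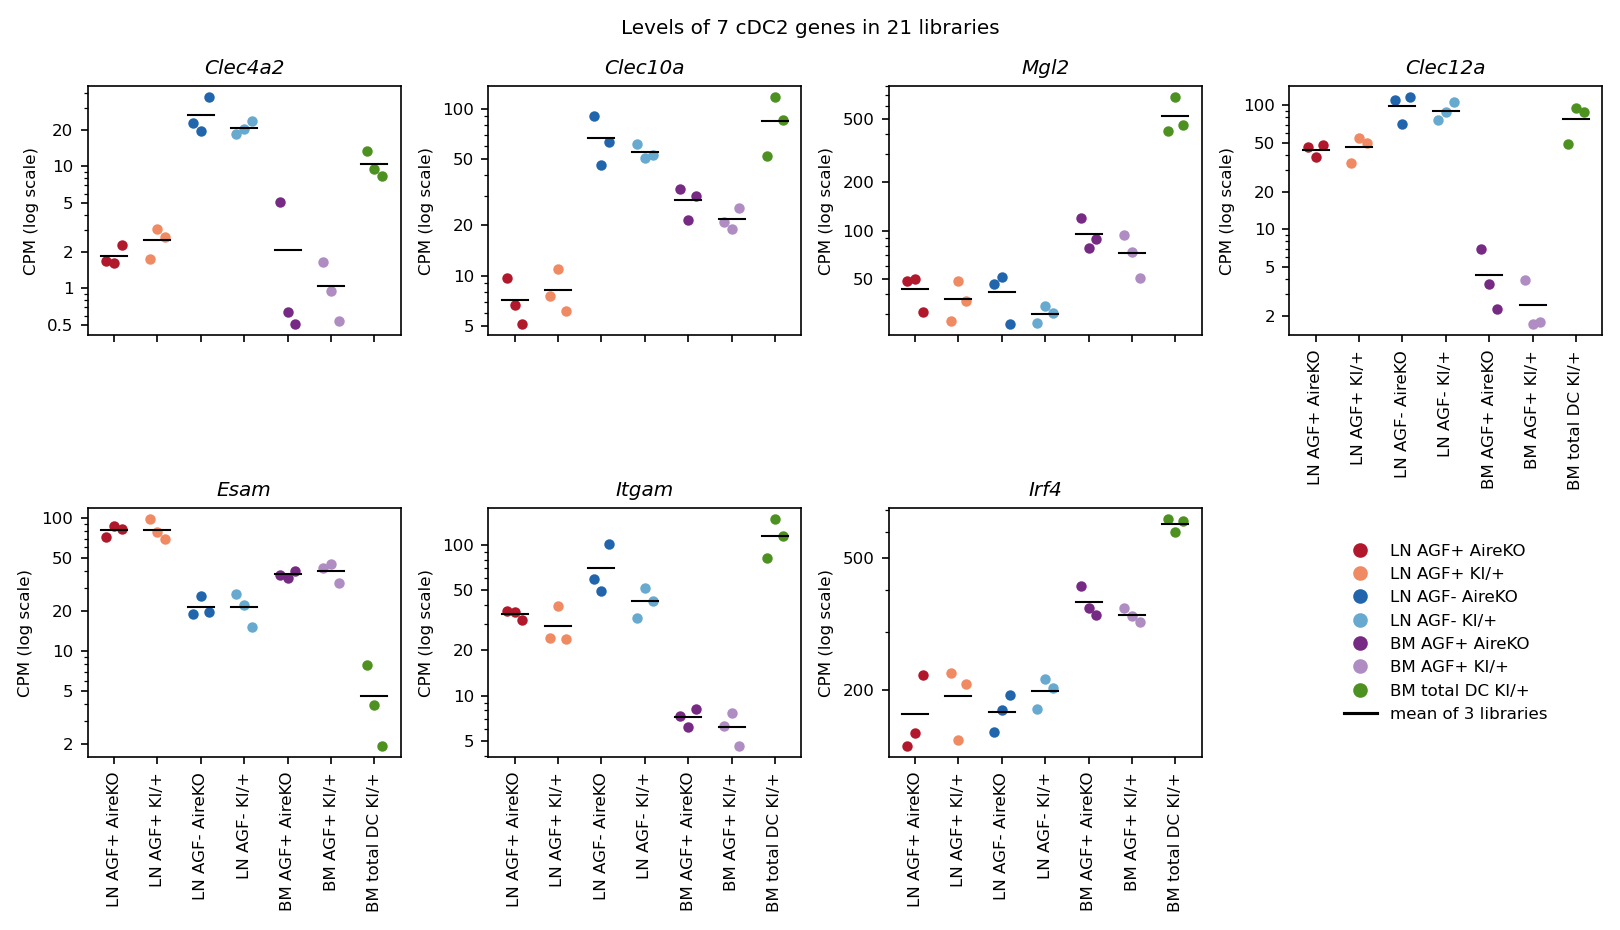
Level of each of the 7 cDC2 genes (CPM, log scale) in each of the 21 libraries, by group, with points for libraries and bars for the mean of 3. Esam was highest in LN AGF+ cells (69.5 to 97.6 CPM), whereas Mgl2 and Irf4 were highest in BM total DCs (419.7 to 681 and 599 to 654 CPM).

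Per kilobase of exon, the order of the 7 genes differed between the groups. In LN AGF+ KI/+ cells the highest level per length was that of Irf4, at 39.2 ± 9.05 CPM per kb (SD, n = 3 here and for all levels), followed by Esam at 28.5 ± 5.03, and the lowest was Clec4a2 at 0.845 ± 0.229. In LN AGF- KI/+ cells Irf4 led at 40.5 ± 4.27 CPM per kb, followed by Clec10a at 18.9 ± 1.95, with Esam at 7.47 ± 2.04. BM total DCs held 248 ± 67.6 CPM per kb of Mgl2 and 129 ± 6.19 of Irf4, and Esam was the lowest there at 1.60 ± 1.06. The 7 genes therefore did not keep 1 order across the sorts.

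To ask how Aire-reporter cells differ from other LN DCs in these genes, AGF+ were compared with AGF- cells within each genotype with edgeR's quasi-likelihood test. In KI/+ mice Esam was higher and Clec4a2, Clec10a and Clec12a were lower in AGF+ cells, while Mgl2, Itgam and Irf4 did not pass the threshold of 0.05 on adjusted p. That is 1 member higher, where 10.1% of all 15884 genes tested were called higher, and 3 lower, where 11% were called lower. In AireKO mice 1 member was higher, against 11.4% of genes, and 4 were lower, against 13.3%, the added one being Itgam. The median log2 fold change of the 7 genes was -0.55 in KI/+ and -1.02 in AireKO mice, and that of all genes was 0.01 in each. In bulk RNA, fewer cells of a type and less RNA per cell cannot be told apart. The calls on the 7 genes stayed as they were when the libraries numbered 2 were left out (4 called in KI/+ and 5 in AireKO mice).

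Clec4a2 encodes an inhibitory lectin receptor (DCIR) with a cytoplasmic ITIM motif, which recruits phosphatases. It lies on chromosome 6 (GRCm38, 123106428 to 123143999, plus strand). LN AGF+ cells held 1.68, 1.61 and 2.26 CPM in AireKO and 1.74, 3.05 and 2.63 CPM in KI/+ libraries. LN AGF- cells held 22.9, 19.4 and 36.9 CPM in AireKO and 18.3, 20.2 and 23.8 CPM in KI/+ libraries. All 6 AGF+ libraries were low, and neither pair of groups overlapped. The log2 fold change was -3.82 ± 0.31 (SE, as for all that follow, with 3 libraries per group) in AireKO mice, which is 14.1-fold lower (edgeR adjusted p = 1.8e-06). In KI/+ mice it was -3.06 ± 0.29, 8.36-fold lower (edgeR adjusted p = 1.1e-05). The AGF+ values rest on 8 to 20 counts per library. Of the 50-base windows of its transcripts, 6.83% also occur in another gene, chiefly Clec4a4, a close relative. Clec4a4 itself, named for this overlap, was at 5.95 CPM in AGF+ and 8.01 CPM in AGF- cells of AireKO mice and at 4.94 and 5.87 CPM in KI/+ mice, and did not pass the test.

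Clec10a and Mgl2 encode the neighbouring macrophage galactose-type lectins (CD301a and CD301b), which bind galactose and N-acetylgalactosamine. Both lie on the plus strand of chromosome 11 in GRCm38, Mgl2 from 70130329 to 70137550 and Clec10a from 70156197 to 70170834. In LN AGF+ cells Clec10a stood at 9.73, 6.65 and 5.14 CPM in AireKO and 7.60, 11 and 6.13 CPM in KI/+ libraries. The AGF- libraries of LN held 90.3, 46.1 and 63.4 CPM (AireKO) and 61.2, 50.6 and 52.6 CPM (KI/+). Each AGF+ library was below each AGF- library, with log2 fold changes of -3.19 ± 0.29 in AireKO mice (edgeR adjusted p = 4.6e-06) and -2.71 ± 0.28 in KI/+ mice (edgeR adjusted p = 1.9e-05). Mgl2 did not follow its neighbour. It was at 48.2, 50 and 31.0 CPM in AGF+ AireKO and 27.1, 48.2 and 36.6 CPM in AGF+ KI/+ libraries, against 46.6, 51.0 and 26.1 CPM in AGF- AireKO and 26.5, 33.6 and 30.5 CPM in AGF- KI/+ libraries. The ranges overlapped in both genotypes, the log2 fold changes were 0.06 ± 0.26 (95% interval -0.51 to 0.62) and 0.30 ± 0.27 (-0.28 to 0.88), and neither passed the test.

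These paralogs share sequence, which bears on how reads are divided between them: 9.02% of the 50-base windows of Clec10a and 13.1% of those of Mgl2 occur in another gene, chiefly in each other. The longest run that their coding exons share is 152 bases, in exon 8 of both, at chr11:70169926-70170077 in Clec10a and chr11:70136441-70136592 in Mgl2. It is shown because a read that falls inside it cannot be assigned to either gene by its sequence.
Shared coding run of Clec10a and Mgl2: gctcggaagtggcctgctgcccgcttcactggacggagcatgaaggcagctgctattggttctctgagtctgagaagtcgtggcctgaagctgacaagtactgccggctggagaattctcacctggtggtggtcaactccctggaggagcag
No source used here says how the authors' counting treated such reads, and the values of both genes are uncertain to that extent.

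Within each library the ratio of Mgl2 to Clec10a, both per kilobase of exon, separated the LN sorts. It was 6.85, 10.4 and 8.36 in AGF+ AireKO and 4.93, 6.08 and 8.26 in AGF+ KI/+ libraries. In AGF- cells it was 0.715, 1.53 and 0.571 in AireKO and 0.599, 0.919 and 0.804 in KI/+ libraries. Ratios of BM total DCs, at 7.39 to 11.1, were nearer to those of LN AGF+ than of LN AGF- cells, and those of BM AGF+ cells lay between 4.05 and 5.01 in AireKO and between 2.74 and 6.27 in KI/+ libraries.

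**Figure D2:**
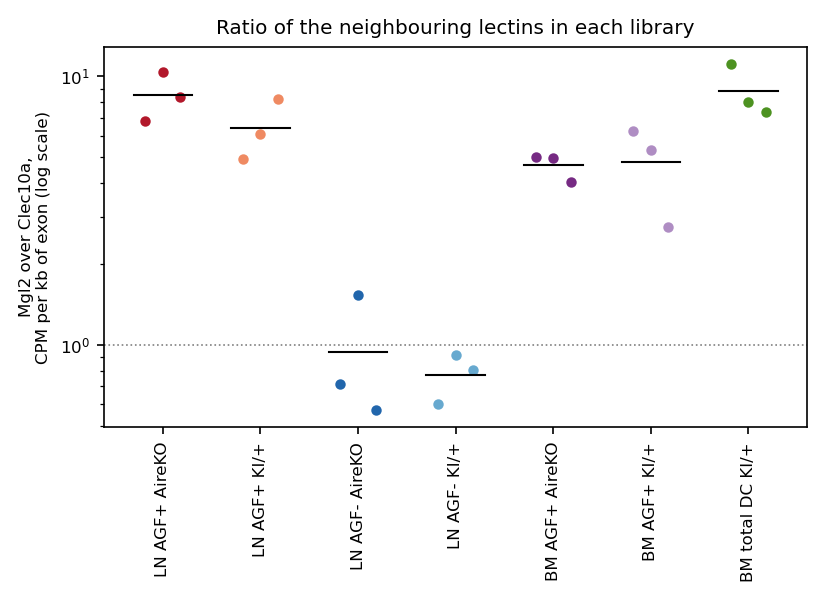
Ratio of Mgl2 to Clec10a in each library, from CPM per kilobase of exon (log scale), with points for libraries, bars for group means and a dotted line at a ratio of 1. The 6 LN AGF- libraries lie between 0.571 and 1.53 and the other 15 between 2.74 and 11.1.

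Clec12a encodes an inhibitory lectin receptor for uric acid crystals released by dying cells. It lies on chromosome 6 (129342691 to 129365303, plus strand). LN AGF+ cells held 46.1, 38.1 and 47.5 CPM in AireKO and 34.0, 54.1 and 50 CPM in KI/+ libraries. LN AGF- cells held 111, 71.2 and 116 CPM in AireKO and 75.5, 87.9 and 106 CPM in KI/+ libraries. The groups did not overlap, but the difference was smaller than for Clec4a2 and Clec10a, with log2 fold changes of -1.18 ± 0.21 in AireKO mice (edgeR adjusted p = 0.00105) and -0.97 ± 0.21 in KI/+ mice (edgeR adjusted p = 0.00498).

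Of the 7 genes, 5 have a promoter window in RefSeq's GRCm38.p6 annotation (Clec4a2, Mgl2, Clec12a, Itgam and Irf4, not Clec10a and Esam), from 250 bases before to 50 bases after the transcript start. They were searched on both strands for 5 motifs of factors that act in DCs: the ETS-IRF composite element (in 2.72% of all 32851 promoters of the same length), the interferon-stimulated response element (3.44%), AP-1 (TGANTCA, 7.81%), RBPJ (GTGGGAA, 6.38%) and PU.1 (GAGGAAGT, 3.20%). The AP-1 motif matched once in Clec4a2, with its first base at position 32 counted from the start, and once in Clec12a, at position -213. These windows are shown with that of Mgl2, a lectin gene without a match to any of the 5, and capitals mark the AP-1 match. They lie at chr6:123122440-123122739, chr6:129349994-129350293 and chr11:70130107-70130406 in GRCm38.p6, all on the plus strand. The transcript start of the Mgl2 window is 28 bases from the gene start given above, whereas those of Clec4a2 and Clec12a lie 16262 and 7553 bases inside the gene, so that these windows do not cover the most upstream annotated start.
Clec4a2: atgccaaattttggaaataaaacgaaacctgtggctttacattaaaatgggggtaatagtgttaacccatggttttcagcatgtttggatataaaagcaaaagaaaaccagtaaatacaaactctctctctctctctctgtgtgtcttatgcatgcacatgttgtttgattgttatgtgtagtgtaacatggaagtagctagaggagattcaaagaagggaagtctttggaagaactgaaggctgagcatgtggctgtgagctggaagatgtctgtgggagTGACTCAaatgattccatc
Clec12a: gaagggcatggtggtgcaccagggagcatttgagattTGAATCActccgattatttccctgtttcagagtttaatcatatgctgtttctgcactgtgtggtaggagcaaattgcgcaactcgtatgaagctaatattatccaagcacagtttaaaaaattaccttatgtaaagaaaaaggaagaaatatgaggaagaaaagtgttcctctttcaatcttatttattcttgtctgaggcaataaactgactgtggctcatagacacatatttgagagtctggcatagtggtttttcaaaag
Mgl2: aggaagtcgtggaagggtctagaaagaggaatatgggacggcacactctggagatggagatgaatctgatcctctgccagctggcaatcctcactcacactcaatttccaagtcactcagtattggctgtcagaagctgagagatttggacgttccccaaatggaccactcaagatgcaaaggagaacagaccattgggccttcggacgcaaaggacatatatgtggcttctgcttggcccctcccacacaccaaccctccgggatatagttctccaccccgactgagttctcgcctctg
A match describes the letters of the window and not a bound site.

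Esam encodes an immunoglobulin-type adhesion molecule of cell junctions and lies on chromosome 9 (37528078 to 37538319, plus strand). It was the member that was higher in AGF+ cells. LN AGF+ cells held 72.0, 87.4 and 82.4 CPM in AireKO and 97.6, 78.2 and 69.5 CPM in KI/+ libraries, and LN AGF- cells held 19.1, 25.8 and 19.7 CPM in AireKO and 26.9, 22.1 and 15.3 CPM in KI/+ libraries. The lowest AGF+ library lay above the highest AGF- library. Log2 fold changes were 1.9 ± 0.20 in AireKO mice, 3.72-fold higher (edgeR adjusted p = 1.4e-05), and 1.93 ± 0.20 in KI/+ mice, 3.82-fold higher (edgeR adjusted p = 1.9e-05). Endothelial cells also express Esam. The summed level of 7 endothelial genes was lower in AGF+ than in AGF- cells, at 44.8 to 48.9 against 139.5 to 201 CPM in AireKO and 42.7 to 68.5 against 124 to 142 CPM in KI/+ libraries. Of the 7, 3 were tested: Pecam1 (24.9 against 87.1 CPM in KI/+ mice) and Cdh5 (0.581 against 10.6 CPM) were lower in both genotypes, and Kdr was not called (26.5 against 36.1 CPM). The other 4 were near 0 in both sorts of KI/+ mice: Cldn5 and Emcn had 0 counts in AGF+ and in AGF- cells, Tek was at 0.408 against 0.135 CPM, and Egfl7 at 0.989 against 0.633 CPM. The part of such cells in the Esam result was not tested. Of 7 other genes of the same adhesion family or its junction partners, 4 were tested. F11r, a junctional adhesion molecule, was higher in AireKO mice (62.5 CPM in AGF+ and 41.0 CPM in AGF- cells, log2 fold change 0.61 ± 0.19, edgeR adjusted p = 0.0301), and none of the 4 was called in KI/+ mice, where their median log2 fold change was 0.69. Of all genes, 11.4% were called higher in AireKO and 10.1% in KI/+ mice.

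Itgam encodes the αM integrin chain (CD11b), which pairs with the β2 chain, encoded by Itgb2, to form the complement receptor Mac-1. It lies on chromosome 7 (128062640 to 128118491, plus strand), and 68.67% of its exon bases also belong to Gm49368, a protein-coding gene annotated on the same strand that collected 46 counts over all libraries. No source used here says to which of the 2 genes a read in their common exons was given. LN AGF+ cells held 36.6, 35.9 and 31.7 CPM in AireKO and 24.1, 39.5 and 23.7 CPM in KI/+ libraries, and AGF- cells held 59.8, 49.9 and 102 CPM in AireKO and 32.7, 52.2 and 42.8 CPM in KI/+ libraries. The groups were apart in AireKO mice, with a log2 fold change of -1.02 ± 0.26 (edgeR adjusted p = 0.0108), and overlapped in KI/+ mice, with -0.55 ± 0.27 (95% interval -1.12 to 0.02, edgeR adjusted p = 0.169). Without LN AGF- AireKO library 3, at 102 CPM, the AireKO log2 fold change was -0.67 (edgeR adjusted p = 0.0484). The difference between the genotypes did not pass the test of the interaction, at -0.47 ± 0.37 (edgeR adjusted p = 1). Itgb2 was lower in AGF+ cells of AireKO mice (221 against 384 CPM, log2 fold change -0.80 ± 0.15, edgeR adjusted p = 0.0017) and of KI/+ mice (221 against 335 CPM, -0.60 ± 0.15, edgeR adjusted p = 0.0125). Of 8 genes of β2 integrins, their ligands and adaptors, 6 were lower and 1 higher in AireKO mice and 5 lower and 1 higher in KI/+ mice. Of all genes, 13.3% were lower and 11.4% higher in AireKO mice, and 11% and 10.1% in KI/+ mice. The lower β2 integrin genes included Itgax, the αX chain (CD11c) used in the LN gate of both sorts. It was at 193 CPM in AGF+ and 484 CPM in AGF- KI/+ cells (-1.33 ± 0.21, edgeR adjusted p = 6.3e-04).

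Irf4, on chromosome 13 (30749226 to 30766976, plus strand), was at 136, 149 and 223 CPM in LN AGF+ AireKO and 226, 142 and 209 CPM in LN AGF+ KI/+ libraries. LN AGF- libraries held 149.7, 175 and 193 CPM in AireKO and 176, 217 and 203 CPM in KI/+ mice. All 4 groups overlapped. The log2 fold changes of -0.03 ± 0.19 in AireKO (95% interval -0.45 to 0.38) and -0.05 ± 0.19 in KI/+ mice (-0.46 to 0.36) did not pass the test, and without the libraries numbered 2 they were 0.07 and 0.19. Its relative Irf8, a factor required for the cDC1 lineage, was lower in AGF+ cells, at 104 against 452 CPM in AireKO (log2 fold change -2.12 ± 0.33, edgeR adjusted p = 3.5e-04) and 144 against 443 CPM in KI/+ mice (-1.62 ± 0.32, edgeR adjusted p = 0.00272). The ratio of Irf4 CPM to Irf8 CPM within a library, in which gene length cancels between libraries, was 1.76 to 2.93 in AGF+ AireKO and 1.76 to 2.18 in AGF+ KI/+ libraries, against 0.302 to 0.969 in AGF- AireKO and 0.400 to 1.07 in AGF- KI/+ libraries. Of 14 relatives and partners of Irf4, 6 were lower and 1 higher in KI/+ mice, where 11% and 10.1% of all genes were. Ikzf3, a lymphoid zinc finger factor, was the lowest by fold (7.61 against 105 CPM, -3.80 ± 0.28, edgeR adjusted p = 1.6e-06), Irf7 was lower (48.2 against 122 CPM, -1.35 ± 0.27, edgeR adjusted p = 0.00274), and Spib, an ETS factor that can pair with IRF4, was the one that was higher (259 against 122 CPM, 1.09 ± 0.22, edgeR adjusted p = 0.00313). In AireKO mice 6 were lower and 2 higher, where 13.3% and 11.4% of all genes were.

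**Figure D3:**
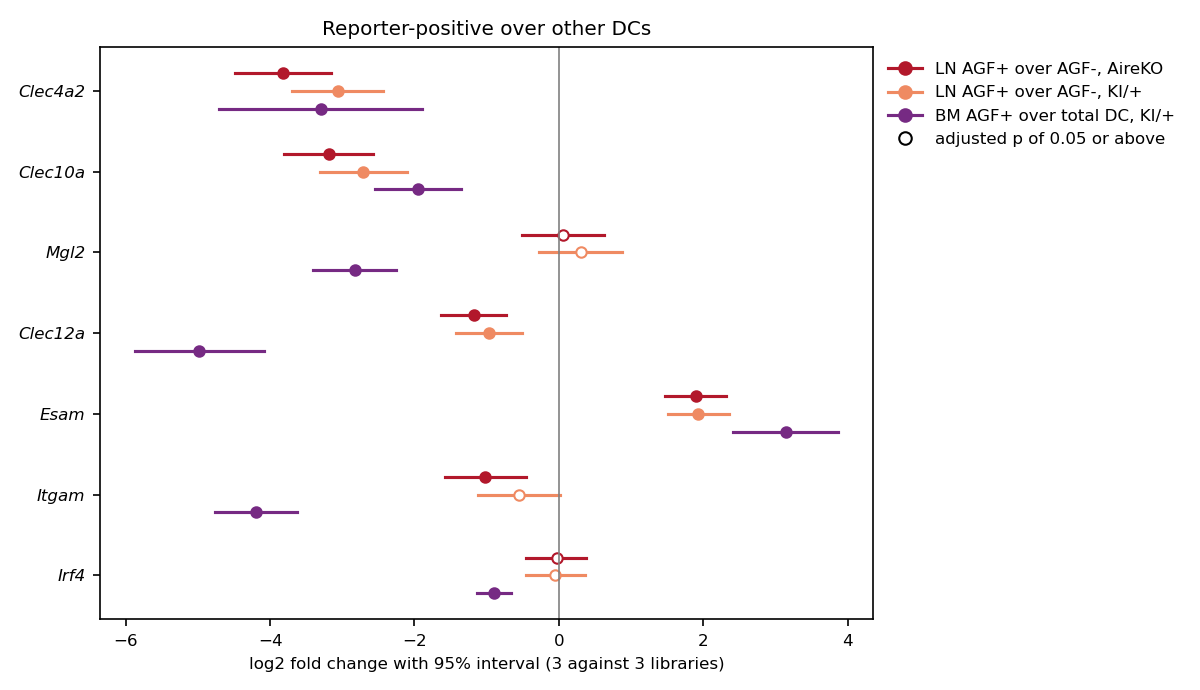
Log2 fold change with its 95% interval for each of the 7 cDC2 genes, in LN AGF+ over AGF- cells of AireKO and KI/+ mice and in BM AGF+ cells over total DCs of KI/+ mice (3 libraries against 3). Filled points passed adjusted p under 0.05, the Itgam point of BM is set in part by the AGF+ gate, and Esam is the gene to the right of 0 with filled points in all 3 comparisons.

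Genes of other cells moved with these results. The summed level of 12 monocyte and macrophage genes was 194 to 340.3 CPM in LN AGF+ AireKO and 285 to 396 CPM in LN AGF+ KI/+ libraries, against 1530.1 to 2473 CPM in LN AGF- AireKO and 1471 to 1723 CPM in LN AGF- KI/+ libraries. Of these 12, 10 were lower in AireKO and 7 in KI/+ mice, where 13.3% and 11% of all genes were, and none was higher. Lyz2, lysozyme, was at 259.9 CPM in AGF+ and 1240.4 CPM in AGF- KI/+ cells, and Ccr2, the receptor that brings monocytes out of the marrow, at 6.25 and 155 CPM. NK cell genes summed to 1.01 to 2.88 CPM in AGF+ AireKO and 0.657 to 0.791 CPM in AGF+ KI/+ libraries, against 47.3 to 415 and 28.8 to 214 CPM in the AGF- libraries of these genotypes. B cell genes summed to 60.1 to 72.6 CPM in AGF+ AireKO and 47 to 77.3 CPM in AGF+ KI/+ libraries, against 344 to 760.1 and 228 to 527 CPM in the AGF- libraries. Of the plasmacytoid DC list, Siglech averaged 8.77 CPM in AGF+ and 117 CPM in AGF- KI/+ cells, whereas Tcf4 was at 296 and 359 CPM. Of the T cell list in KI/+ mice, Cd3e was lower (2.83 against 28.7 CPM, edgeR adjusted p = 0.0119) and Cd5 was not called (21.1 against 23 CPM). The part of these cells in the lower Clec4a2, Clec10a, Clec12a, Itgam, Irf7 and Irf8 of AGF+ cells was not tested.

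Beyond the 7 genes, a list of 21 other cDC2 genes was examined in LN AGF+ cells. In KI/+ mice 15 of the 21 were lower, where 11% of all genes were, 1 was higher and 5 were not called, with a median log2 fold change of -1.16. In AireKO mice 16 were lower, where 13.3% of all genes were, 1 was higher and 4 were not called, with a median of -1.67, and the median of all genes was 0.01 in both. Several of these genes, such as Csf1r and Cx3cr1, are also expressed by monocytes. Cd209a, a lectin receptor (DC-SIGN family) of cDC2 and of monocyte-derived DCs, was the lowest by fold, at 1.95 CPM in AGF+ and 80.5 CPM in AGF- AireKO cells (-5.35 ± 0.38, edgeR adjusted p = 6.9e-07) and at 2.46 and 68.7 CPM in KI/+ cells (-4.89 ± 0.36, edgeR adjusted p = 1.6e-06). Clec4a1 and Clec4a3, relatives of Clec4a2 in the same gene cluster, were at 17.4 and 5.92 CPM in AGF+ against 88.6 and 49.3 CPM in AGF- KI/+ cells (edgeR adjusted p = 3.5e-05 and 5.1e-05). Zeb2, a factor that promotes cDC2 development, was at 318 CPM in AGF+ and 613 CPM in AGF- AireKO cells (-0.95 ± 0.11, edgeR adjusted p = 3.3e-05). The gene that was higher in both genotypes was Ltb, the membrane-bound lymphotoxin chain, at 142 against 81.8 CPM in AireKO (0.80 ± 0.13, edgeR adjusted p = 4.6e-04) and 167 against 63.6 CPM in KI/+ mice (1.39 ± 0.13, edgeR adjusted p = 9.8e-06). Sirpa, named after its values were seen because it defines cDC2 by flow cytometry, was lower by less than most, at 374 CPM in AGF+ and 600.4 CPM in AGF- KI/+ cells (-0.68 ± 0.18, edgeR adjusted p = 0.0152).

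**Figure D4:**
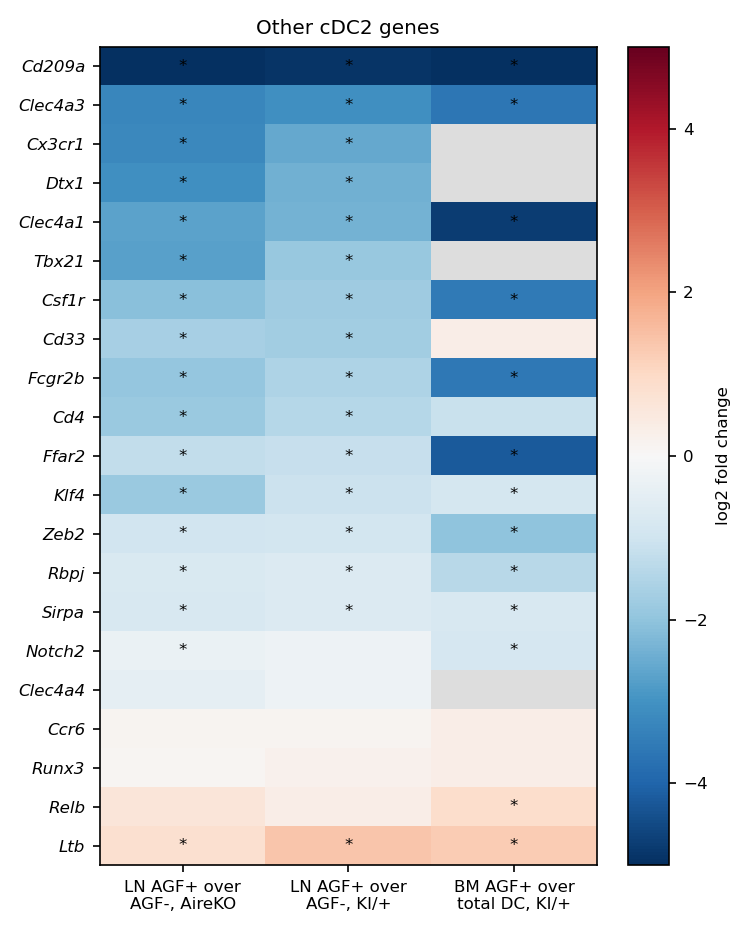
Log2 fold changes of 21 other cDC2 genes in LN AGF+ over AGF- cells of AireKO and KI/+ mice and in BM AGF+ cells over total DCs, with asterisks for adjusted p under 0.05, grey for genes not tested and colours capped at the ends of the scale. Cd209a is at the top (-5.35, -4.89 and -6.99) and Ltb, higher in all 3, at the bottom.

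Other C-type lectin genes were lower or higher in LN AGF+ cells as well: of 15 listed, 10 were tested, and 7 were lower and 1 higher in AireKO and 5 lower and 1 higher in KI/+ mice. Of all genes, 13.3% were lower and 11.4% higher in AireKO mice, and 11% and 10.1% in KI/+ mice. Clec9a, a cDC1 receptor for dead cells, was lower (2.61 CPM in AGF+ and 41.1 CPM in AGF- KI/+ cells, edgeR adjusted p = 1.2e-05), as was Clec7a, the β-glucan receptor dectin-1 (12 against 54.6 CPM, edgeR adjusted p = 3.1e-04). Clec2i was higher (166 against 92.7 CPM, edgeR adjusted p = 4.8e-04). Among the 3 genes of phosphatases that ITIM motifs recruit, Ptpn6 (SHP-1) was lower in AGF+ cells of AireKO mice (194 against 340.1 CPM, -0.81 ± 0.13, edgeR adjusted p = 4.3e-04) and of KI/+ mice (195 against 287 CPM, -0.56 ± 0.13, edgeR adjusted p = 0.0068). Inpp5d was lower in AireKO mice (284 against 369 CPM, edgeR adjusted p = 0.0326) and not called in KI/+ mice. Ptpn11 was not called in either genotype.

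In BM the comparison of AGF+ cells with total DCs of KI/+ mice gave a larger split. Itgam is left out of the counts because the AGF+ gate used its protein. Of the other 6 genes, Esam was higher and Clec4a2, Clec10a, Mgl2, Clec12a and Irf4 were lower in AGF+ cells. That is 1 of 6 higher, where 22.8% of 15503 genes were called higher, and 5 lower, where 21.6% were, with a median log2 fold change of -2.38 against 0.02 for all genes. Reporter and gate cannot be told apart in this comparison. Without the libraries numbered 2 the 6 were still called in these directions.

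Esam stood at 42.2, 45.1 and 32.2 CPM in BM AGF+ KI/+ libraries and at 7.91, 3.91 and 1.94 CPM in total DC libraries. The log2 fold change was 3.14 ± 0.33, which is 8.82-fold higher (edgeR adjusted p = 3.1e-05). The 7 endothelial genes summed to 109.7 to 163 CPM in AGF+ and 35.0 to 65.0 CPM in total DC libraries. Kdr, a receptor for vascular endothelial growth factor, was higher (77.4 against 2.13 CPM, edgeR adjusted p = 7.9e-05), and Pecam1 was not called (55.1 against 47.4 CPM). The other 5 were not tested: Egfl7 was at 2.03 against 0.682 CPM, Tek at 1.18 against 0.484 CPM, and Cdh5, Emcn and Cldn5 averaged at most 0.211 CPM in both. Its part in the Esam result was not tested. Of 6 tested genes of the Esam-related list 1 was called, where 22.8% of all genes were higher and 21.6% lower. It was Magi1, a scaffold protein of junctions, which was higher (10.4 against 0.409 CPM, 4.6 ± 0.37, edgeR adjusted p = 6.1e-06).

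Among the lectins, Clec12a showed the largest fold. It was at 3.89, 1.73 and 1.79 CPM in AGF+ KI/+ libraries, or 19, 9 and 10 counts, and at 49.2, 96.0 and 88.7 CPM in total DC libraries. All AGF+ libraries were low, and the level was 31.5-fold lower (-4.98 ± 0.41, edgeR adjusted p = 6.9e-06). Mgl2 was at 94.6, 73.4 and 50.6 CPM in AGF+ libraries, against 419.7, 681 and 456 CPM in total DC libraries (-2.82 ± 0.26, edgeR adjusted p = 1.4e-05). Clec10a was at 20.9, 19 and 25.6 CPM, against 52.4, 117 and 85.4 CPM (-1.95 ± 0.27, edgeR adjusted p = 2.1e-04). Clec4a2 was at 1.64, 0.961 and 0.537 CPM in AGF+ libraries, or 8, 5 and 3 counts, against 13.5, 9.46 and 8.32 CPM in total DC libraries (-3.30 ± 0.64, edgeR adjusted p = 0.00166). Thus Mgl2 and Clec10a were both lower in BM AGF+ cells, whereas in LN the test passed for Clec10a and not for Mgl2.

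Itgam was at 6.35, 7.68 and 4.65 CPM in BM AGF+ KI/+ libraries and at 81.5, 148 and 115 CPM in total DC libraries, a log2 fold change of -4.20 ± 0.26 between AGF+ cells that were selected for little or no CD11b and total DCs whose gate did not use it. Its partner Itgb2 was lower too, at 112 against 326 CPM (-1.53 ± 0.14, edgeR adjusted p = 1.5e-05). Irf4 was at 353, 334 and 322 CPM in AGF+ libraries and 654, 599 and 648 CPM in total DC libraries, 1.87-fold lower (-0.90 ± 0.11, edgeR adjusted p = 5.9e-05), the smallest fold of the 6. Irf8 did not pass the test there (259 against 318 CPM, -0.28 ± 0.27, edgeR adjusted p = 0.421). Spib was higher, at 236 against 28.3 CPM (3.07 ± 0.25, edgeR adjusted p = 6.9e-06). Among the 14 relatives and partners of Irf4, 6 were higher and 2 lower, where 22.8% and 21.6% of all genes were.

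Monocyte and macrophage genes summed to 121 to 179 CPM in BM AGF+ KI/+ and 935 to 1224 CPM in total DC libraries. Of these, 9 of the 10 tested were lower, among them Adgre1 (F4/80) at 63.4 against 531 CPM. In this comparison 21.6% of all genes were called lower and 22.8% higher. The neutrophil list summed to 2.51 to 15.4 against 69.3 to 155 CPM, and the plasmacytoid DC list to 1344 to 1506 against 561 to 663 CPM. Most of the plasmacytoid DC sum came from Tcf4 (1068 against 505 CPM), while Siglech averaged 82.4 against 8.02 CPM and Ly6d 27.4 against 0.554 CPM. In total DCs the neutrophil sum rested mainly on Cxcr2 (54.7 CPM) and Mpo (36.2 CPM, range 3.29 to 93). S100a8, S100a9 and Ly6g of that list averaged 2.44, 2.29 and 0.0713 CPM there. B cell genes summed to 204 to 256 CPM in AGF+ and 22.3 to 32.1 CPM in total DC libraries, and the 4 of 6 that were tested were higher, among them Blk (98.9 against 5.18 CPM), Pax5 (15.3 against 0.541 CPM) and Cd79b (109.9 against 20.8 CPM). Progenitor genes summed to 485 to 505 against 133 to 182 CPM, with 3 of 6 higher and 1 lower. Most of the sum came from Kit (319 against 115 CPM) and Meis1 (165 against 26.6 CPM), both higher. Gata2 was the one that was lower (0.712 against 6.21 CPM), and Cd34 was not called (6.52 against 10.7 CPM). Whether cells that express these genes have a part in the results, that of Spib included, was not tested. Of the 21 other cDC2 genes 17 were tested, 11 were lower and 2 higher (median log2 fold change -1.13), where 21.6% and 22.8% of all genes were. Ffar2, a receptor for short-chain fatty acids, was at 0.883 against 17 CPM (edgeR adjusted p = 1.5e-05), Clec4a1 at 0.998 against 27.1 CPM (2.3e-05), and Rbpj, the nuclear effector of Notch, at 315 against 829 CPM (edgeR adjusted p = 2.3e-05). Ltb and Relb were the 2 that were higher, at 44.8 against 18.7 CPM and 266 against 148 CPM.

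The AireKO and KI/+ genotypes were compared within each sort to ask whether loss of Aire alters these genes. None of the 7 passed the test in LN AGF+ cells, where 0.0126% of all genes were called (2 of 15884, and 583 at an unadjusted p under 0.05), in LN AGF- cells (0.00630%, 1 gene, 949 unadjusted) or in BM AGF+ cells (0.0129%, 2 of 15503, 259 unadjusted). DESeq2 also called 0 of the 7 in each, whereas with no filter on low counts Itgam was called in LN AGF- cells (0.70, edgeR adjusted p = 0.0131). The median log2 fold changes of the 7 were -0.08, 0.27 and 0.38, against -0.01, 0.03 and 0.00 for all genes. Groups of the 2 genotypes overlapped for all 7 genes in every sort.

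Within that limit the intervals set bounds that differ by gene. In LN AGF+ cells Esam averaged 80.6 ± 7.88 CPM in AireKO and 81.8 ± 14.4 CPM in KI/+ libraries, and its log2 fold change was -0.04 ± 0.18 (95% interval -0.43 to 0.36). Clec4a2 averaged 1.85 ± 0.358 CPM in AireKO and 2.47 ± 0.669 CPM in KI/+ libraries, with an interval of -1.22 to 0.36. In LN AGF- cells Itgam had the smallest unadjusted p of the 7, 0.0166, with 70.6 ± 27.8 CPM in AireKO and 42.6 ± 9.76 CPM in KI/+ libraries (0.71 ± 0.26, edgeR adjusted p = 0.798). AireKO library 3, at 102 CPM, was above the others, and without it the log2 fold change was 0.35. In BM AGF+ cells Clec4a2 was at 5.09, 0.643 and 0.511 CPM in AireKO libraries, or 27, 3 and 2 counts, against 1.64, 0.961 and 0.537 CPM in KI/+ libraries. Its log2 fold change of 1.11 ± 0.78 rested on AireKO library 1 and was -0.79 without it. The same library had the highest Clec12a of its group, at 6.97 CPM against 3.65 and 2.30 CPM in the other 2 AireKO libraries.

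**Figure D5:**
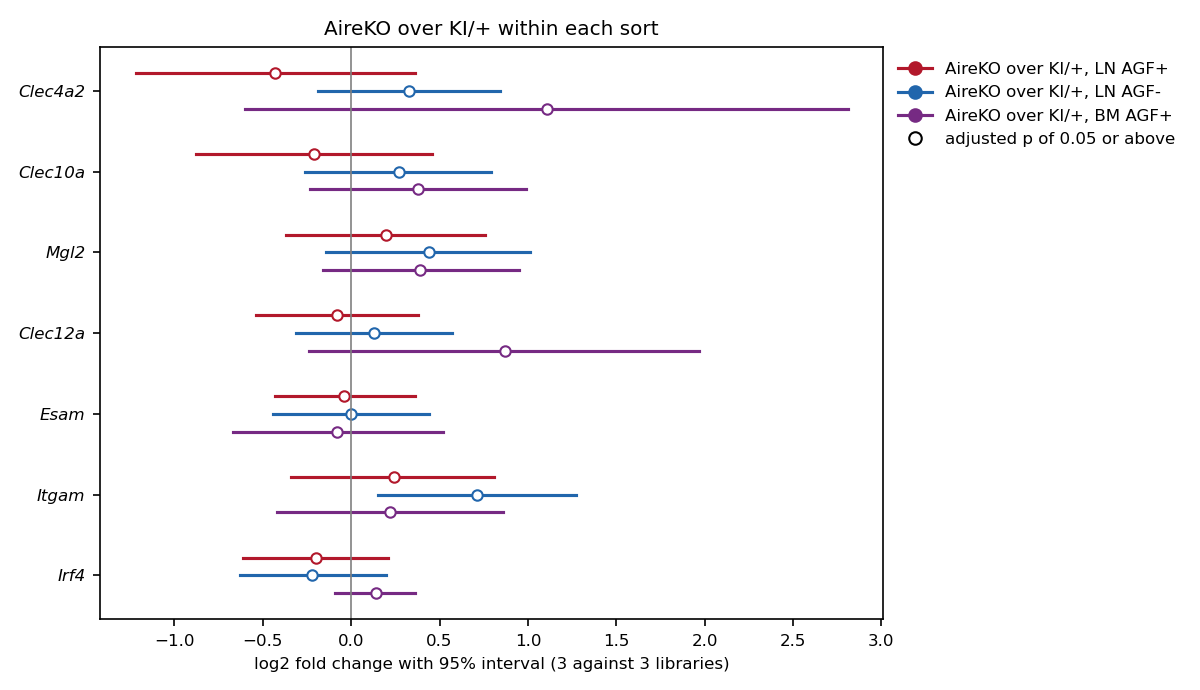
Log2 fold change of AireKO over KI/+ with its 95% interval for each of the 7 cDC2 genes in LN AGF+, LN AGF- and BM AGF+ cells (3 libraries against 3). All points are open because none passed adjusted p under 0.05, and the widest interval, -0.60 to 2.81, is that of Clec4a2 in BM.

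Whether the difference between LN AGF+ and AGF- cells itself depended on genotype was tested as an interaction. No member was called, where 0.00630% of genes were (1 of 15884, with 261 at an unadjusted p under 0.05, and DESeq2 called 0 of the 7). The member with the largest value was Clec4a2, at -0.76 ± 0.44 (95% interval -1.70 to 0.19). Of the other cDC2 genes, lectins, Irf4 relatives, β2 integrin, junction and phosphatase genes, none was called for genotype in any sort or for the interaction.

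AGF+ cells of LN were then compared with those of BM, a comparison in which tissue and gate cannot be told apart. Of the 6 genes without Itgam, in both genotypes 2 were higher in LN (Clec12a and Esam), 3 were lower (Clec10a, Mgl2 and Irf4), and Clec4a2 was not called. The background was 27.2% of 17265 genes higher and 27.1% lower in KI/+ mice and 25.7% higher and 25.7% lower in AireKO mice, so that calls in either direction were common. Clec12a was at 43.9 ± 5.10 CPM in LN and 4.31 ± 2.40 CPM in BM AireKO cells (3.29 ± 0.34, edgeR adjusted p = 1.3e-07) and at 46.0 ± 10.6 and 2.47 ± 1.23 CPM in KI/+ cells, 18.7-fold higher (4.23 ± 0.37, edgeR adjusted p = 1.0e-08). Esam was 2.14-fold higher in AireKO and 2.06-fold higher in KI/+ LN cells (edgeR adjusted p = 7.5e-04 and 9.9e-04). The Itgam log2 fold changes of 2.26 ± 0.31 and 2.23 ± 0.31 compare cells with a gate on CD11b in BM and none in LN. Among the genes that were lower, Clec10a changed most, at -1.96 ± 0.32 in AireKO (7.17 against 28.3 CPM, edgeR adjusted p = 3.4e-05) and -1.39 ± 0.31 in KI/+ cells (8.24 against 21.8 CPM, edgeR adjusted p = 8.3e-04). Irf4 was 2.18-fold lower in AireKO and 1.75-fold lower in KI/+ LN cells (edgeR adjusted p = 1.7e-05 and 4.6e-04), and Mgl2 changed by -1.15 ± 0.27 and -0.96 ± 0.28 in these genotypes (edgeR adjusted p = 0.00159 and 0.00571). Clec4a2 gave -0.27 ± 0.58 in AireKO and 1.25 ± 0.62 in KI/+ cells. Without BM AGF+ AireKO library 1 its values were 1.60 (edgeR adjusted p = 0.042) and 1.23, so its direction in AireKO cells rests on that library. Of the 21 other cDC2 genes, 16 were higher and 2 lower in KI/+ LN cells.

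The populations not sorted as AGF+, LN AGF- cells and BM total DCs of KI/+ mice, differed in 6 of the 7 genes, with 2 higher in LN, where 28.8% of genes were, and 4 lower, where 27.3% were. Mgl2 differed most, at 30.2 ± 3.57 CPM in LN and 519 ± 142 CPM in BM (-4.10 ± 0.30, edgeR adjusted p = 9.0e-10), and every LN library was below every BM library. Irf4 (199 ± 20.9 against 634 ± 30.3 CPM, -1.67 ± 0.17, edgeR adjusted p = 1.0e-07) and Itgam (42.6 ± 9.76 against 115 ± 33.5 CPM, -1.43 ± 0.26, edgeR adjusted p = 9.4e-05) were also lower, and Esam was higher (21.4 ± 5.86 against 4.59 ± 3.05 CPM, 2.24 ± 0.31, edgeR adjusted p = 4.2e-06). Clec10a (54.8 ± 5.64 against 85.0 ± 32.4 CPM, -0.63 ± 0.27, edgeR adjusted p = 0.0481) and Clec4a2 (20.8 ± 2.78 against 10.4 ± 2.71 CPM, 1.00 ± 0.38, edgeR adjusted p = 0.0323) were near the threshold. Neither passed without the libraries numbered 2, where they gave -0.27 (edgeR adjusted p = 0.472) and 0.96 (edgeR adjusted p = 0.137). Clec12a was not called (89.7 ± 15.3 against 78.0 ± 25.2 CPM). Monocyte genes were mixed here, with 4 of 12 higher and 6 lower in LN.

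The last comparison asked whether the difference between AGF+ and other DCs was itself different in LN and BM of KI/+ mice. Without Itgam it was for 4 of 6 genes, where 21% of all 17265 genes were called. Clec12a (4.02 ± 0.46, edgeR adjusted p = 3.4e-06), Mgl2 (3.14 ± 0.39, edgeR adjusted p = 8.8e-06) and Irf4 (0.87 ± 0.24, edgeR adjusted p = 0.0127) were less reduced, or not reduced, in LN AGF+ cells than in BM AGF+ cells relative to the other DCs of the tissue. Esam was less increased in LN (-1.20 ± 0.39, edgeR adjusted p = 0.0336). Without the libraries numbered 2 the Esam term was -0.98 (edgeR adjusted p = 0.337) and that of Clec10a, -0.75 ± 0.41 with all libraries (edgeR adjusted p = 0.216), passed at -1.51 (edgeR adjusted p = 0.0422). Clec4a2 gave 0.25 ± 0.70 (95% interval -1.21 to 1.71). The Itgam value, 3.66 ± 0.40, is a description, since the BM AGF+ gate set one of its 4 groups in part. The gates differ between the tissues, so tissue and gate cannot be told apart in these terms either.

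The order of the group means shows how unlike the 7 patterns were. Clec4a2 ran from LN AGF- AireKO cells (26.4 ± 9.24 CPM) through BM total DCs (10.4 ± 2.71) to BM AGF+ KI/+ cells (1.05 ± 0.555), and the 4 AGF+ groups, all under 2.5 CPM on average, overlapped their neighbours. Esam ran the other way, with both LN AGF+ groups first, both BM AGF+ groups next, the LN AGF- groups after them and BM total DCs last. In this order the LN AGF+, BM AGF+ and LN AGF- pairs each overlapped within the pair and not with the next. Irf4 kept BM above LN, with 634 ± 30.3 CPM in total DCs and 368 ± 38.9 and 336 ± 15.9 CPM in AireKO and KI/+ AGF+ cells, and its 4 LN groups overlapped between 136 and 226 CPM.

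Likeness of pattern was measured as the root mean square difference of log2 CPM over the 21 libraries, each gene centred on its own mean, so that a smaller value is more alike. Within the 7 genes Mgl2 and Irf4 had the smallest value, 0.83, followed by Clec12a and Itgam at 0.89, while Clec12a and Esam were the farthest at 2.80. The measure is not scaled for spread, so a gene that varies little has small values with many genes. The median over all genes searched was 0.77 for Irf4 and 1.36 for Mgl2, so Mgl2 was not nearer to Irf4 than the median gene was. That median was 2.05 for Clec12a and 1.48 for Itgam. Mgl2 was farther from its neighbour Clec10a, at 1.41, than from Irf4. Esam was at 1.91 or more from each other member. Over the 9435 genes searched (9436 for Clec4a2), the nearest to Clec4a2 were Cd300c2 (0.62), Clec4a3 (0.67) and Gpr141 (0.67), against a median of 1.76 over all genes. Nearest to Clec10a were Cd300c (0.46), Sept3 (0.48) and Atp2a3 (0.48), and to Mgl2 Dip2c (0.35), Hnrnpll (0.51) and Apbb2 (0.51). Clec12a was nearest to Rnf150 (0.53), Rgl1 (0.54) and Ffar2 (0.66), and Itgam to Aif1 (0.51), Cd300lf (0.51) and Hacd4 (0.56). Esam was nearest to Gria3 (0.36), Vangl2 (0.39) and Icosl (0.41). Icosl, the ligand of the T cell receptor ICOS, averaged 869 and 1192 CPM in LN AGF+ cells of AireKO and KI/+ mice, 273 and 402 CPM in LN AGF- cells of these genotypes, 455 and 513 CPM in BM AGF+ cells and 49.3 CPM in BM total DCs. Irf4 was nearest to Bloc1s6 (0.17), Gsto1 (0.20) and Rcl1 (0.20), against a median of 0.77.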

How the data were processed

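The deposited table held raw read counts per Ensembl gene for 21 libraries. Per the submitters' processing notes, HTSeq 0.11.2 and STAR 2.7.3a were used with build mm10 (GRCm38), besides edgeR 3.38.1, Picard 2.21.1, SAMtools 1.9 and fastp 0.20.0. No source used here names the gene annotation, whether strand was used, or how reads with several matching places were handled. Symbols were matched by Ensembl ID, and 327 of 55471 genes, with 0.0139% of counts, had none. The 7 genes, the lists and the tests were chosen with earlier results of these data known.

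Counts were tested with edgeR 4.0.16 in R 4.3.3 (quasi-likelihood test, TMM scaling, filterByExpr by group, Benjamini-Hochberg adjustment over all genes tested, threshold 0.05). Comparisons within LN came from 1 fit of 12 libraries, those within BM from 1 fit of 9, and those across tissues from 1 fit of 21. The script was tested on simulated data. Replicates are labelled as independent and biological, and no pair of libraries was as alike as counting noise. The p-values measure the spread between replicate libraries within groups, pooled over all groups of a fit and moderated across genes. Levels per kilobase used exon lengths of GENCODE vM21 on GRCm38, and patterns used log2 CPM with a prior count of 2 and genes of mean log2 CPM 3 or more. Promoter sequences came from RefSeq.

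The text names the 7 genes, Itgb2, Irf8 and Aire always, up to 4 genes per list with the smallest p that passed the test, and the 3 genes of nearest pattern. Counts over comparisons with BM AGF+ cells leave out Itgam, a choice made after the values were seen. Other names, such as Sirpa, Relb, the marker genes at 0 and Ltb in AireKO cells, were chosen after their values were seen.

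Alternatives were other scalings, filters on low counts (none, or 10 counts in 3 libraries), DESeq2 1.42.0, limma 3.58.1 (voom), other sets of libraries in the fit, a threshold of 0.01, a replicate block, and leaving libraries out. Same-numbered libraries deviated together in part: the correlation of deviations was above 0.1 for every number in 5 of the 6 pairs of groups compared within a tissue, and the lowest was 0.09.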

Additional observations from a re-analysis of the deposited data

Results flagged for a closer look

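The difference between AGF+ and other DCs differed between LN and BM of KI/+ mice for 5 of the 7 genes. Of all 17265 genes, 21% were called. The test was an interaction in edgeR over all 21 libraries (LN minus BM, log2 scale). The values of the 5 were 4.02 ± 0.46 (SE) for Clec12a, 3.66 ± 0.40 for Itgam, 3.14 ± 0.39 for Mgl2, 0.87 ± 0.24 for Irf4 and -1.2 ± 0.39 for Esam. With 1 library left out, the Esam call was lost in 8 of 21 fits and the Irf4 call in 1 of 21. The Esam call was also lost without the libraries high in Xist. For Mgl2 and Irf4 the AGF+ and AGF- libraries of LN overlapped, whereas every BM AGF+ library was below every total DC library. For Clec12a both tissues were lower in AGF+ cells, and for Esam both were higher. Itgam encodes the protein that the BM AGF+ gate used, so its value is a description. Without Itgam, 3 of 6 genes were called higher and 1 lower. Tissue and gate cannot be told apart for any of the 5.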

How the results depend on the processing

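The 7 genes in 11 comparisons gave 39 calls, with Itgam counted also where the BM AGF+ gate used its protein, of which 34 were kept under all 11 other settings and with each of 21 libraries left out, and none of the 39 changed direction. With 1 library left out the number of the 7 called was 4 to 4 (LN, KI/+), 5 to 5 (LN, AireKO), 7 to 7 (BM), 0 to 0 (each genotype comparison and the LN interaction), 6 to 7 (LN against BM AGF+, in either genotype), 4 to 6 (LN AGF- against BM total DCs) and 4 to 5 (reporter by tissue). At adjusted p under 0.01 the reporter by tissue comparison called 3, and with no filter on low counts LN AGF- cells called 1 gene for genotype, Itgam (0.70, edgeR adjusted p = 0.0131).

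The calls that were lost were these. Clec10a in LN AGF- against BM total DCs gave -0.39 with library size alone, and without 1 library -0.90 to -0.35. Clec4a2 in that comparison gave 0.84 to 1.20 and Esam in reporter by tissue -1.83 to -0.82 without 1 library. Irf4 in reporter by tissue gave 0.69 without LN AGF+ KI/+ library 1 (edgeR adjusted p = 0.0523). Itgam in LN AireKO cells was lost at 0.01. Itgam in LN KI/+ cells passed with no filter (-0.55) and with voom (-0.75, limma adjusted p = 0.019), and Clec4a2 in LN against BM AGF+ KI/+ cells passed with no filter (1.22).

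Only values that were not called changed sign. Without the libraries numbered 2 these were Irf4 in LN KI/+ (0.19) and AireKO cells (0.07), genotype in LN AGF+ cells for Clec10a (0.11) and Clec12a (0.15), the LN interaction for Esam (0.01) and Irf4 (-0.12), and genotype in BM for Esam (0.05). With voom they were Mgl2 in LN AireKO cells (-0.01), genotype for Esam in LN AGF+ (0.07) and AGF- cells (0.08) and for Clec12a in AGF- cells (-0.03), the LN interaction for Itgam (0.02) and Irf4 (-0.11), and Clec4a2 in LN against BM AireKO cells (0.40). Esam by genotype in LN AGF- cells was 0.01 with the replicate block, RLE, library size, DESeq2 or all 21 libraries, and the LN interaction for Irf4 was 0.00 with library size.

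Ranges without 1 library that cross 0 were -0.18 to 0.13 (Irf4, LN KI/+), -0.27 to 0.10 (Irf4, LN AireKO), -0.19 to 0.25 (Mgl2, LN AireKO), and for genotype in LN AGF+ cells -0.52 to 0.06 (Clec10a), -0.26 to 0.06 (Clec12a) and -0.14 to 0.11 (Esam). In LN AGF- cells they were -0.03 to 0.46 (Clec10a) and -0.19 to 0.19 (Esam), in the LN interaction -0.22 to 0.16 for both Esam and Irf4, and in BM -0.79 to 1.57 (Clec4a2) and -0.21 to 0.02 (Esam). They were -0.73 to 1.60 for Clec4a2 in LN against BM AireKO cells, -0.06 to 0.36 for Clec12a in LN AGF- against BM total DCs and -0.08 to 0.70 for Clec4a2 in reporter by tissue. The cause was not tested.

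Over all genes, calls fell to 1942 (LN, KI/+), 3858 (BM) and 1783 (reporter by tissue) without the libraries numbered 2, where fewer libraries were fitted, against 3349, 6881 and 3620. With no filter the genotype calls were 97 in LN AGF+, 270 in LN AGF- and 26 in BM AGF+ cells, against 2, 1 and 2, and without LN AGF- AireKO library 2 they were 89 in LN AGF- cells. In the LN interaction they were 14 with no filter and 0 without the libraries numbered 2, against 1. DESeq2 gave 4, 3 and 2 in LN AGF+ genotype, LN AGF- genotype and the interaction, and the block gave 4, 2 and 2. Calls at adjusted p under 0.01 were 1812 and 2333 for the reporter in LN of KI/+ and AireKO mice (3926 at 0.05 in AireKO) and 2111 for reporter by tissue. LN AGF- genotype gave 0 with its groups alone, LN AGF+ genotype 7 without KI/+ library 2, and BM genotype 1 without the libraries numbered 2. Library size alone moved the median of all genes by 0.242 in LN AGF- against BM total DCs, by 0.161 and 0.15 in LN against BM AGF+ cells and by 0.11 in BM. The replicate block changed no call on the 7 genes. Counts of 2 to 27 per library limit Clec4a2 in AGF+ cells.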
